A study of Rattus norvegicus with 17 samples.

Results

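Liver RNA from rats given the upper pair of daily amounts of isopropylated phenol phosphate (IPP), an aryl phosphate used as a flame retardant and plasticizer, was compared with that from rats given the lower pair. The 12 treated rats of the series, out of 17 rats in all, entered the comparison by the dose in their labels: 6 at 305.5 or 611 mg/kg body weight and 6 at 76.5 or 153 mg/kg, with 3 rats at each dose. All were male Harlan Sprague Dawley rats of the same stock with no genetic modification in the labels, dosed by gavage in corn oil once a day for 4 days. In molar terms 76.5 mg/kg was 0.169 mmol/kg, 153 was 0.338, 305.5 was 0.675 and 611 was 1.35 mmol/kg. The protocol text rounds 76.5 and 305.5 to 77 and 306 mg/kg. The other 5 rats received corn oil alone, were left out of every test here, and are given only as background. Every treated rat of either class therefore shared the vehicle, the gavage and exposure to IPP, so the comparison is between amounts and not between exposure and none. Ages are not given in the labels. Each rat had 1 oligonucleotide array, made from RNA of 3 pieces of the left liver lobe, and the deposited values are log2 signals normalized by RMA.

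The liver answers many lipophilic chemicals through the nuclear receptors CAR and PXR, which raise cytochrome P450, conjugating enzyme and exporter genes in hepatocytes. Around the hepatocytes lie sinusoidal endothelial cells, which scavenge proteins from blood, resident macrophages (Kupffer cells) and vitamin A-storing stellate cells. Adult hepatocytes rarely divide, and genes of mitosis are expressed when they do. The question put to the data was which of these programmes differed between the dose classes beyond the spread between rats given the same dose.

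Differences are log2 higher minus lower doses ± SE from a limma fit with the 4 doses as groups (n = 6 and 6 rats). A gene was called when its Benjamini-Hochberg adjusted p over 14217 genes was under 0.05. The number of arrays limits the precision. The 14 hepatocyte markers averaged 14.1 to 14.3 in every rat, so the tissue matched its label. Arrays of 3 rats stood apart: 611 mg/kg rat 2 had a 3' minus 5' GAPDH control difference of 2.89, against 0.93 to 1.53 on the other treated arrays, and its median correlation with them was 0.985. The other two were 76.5 mg/kg rats 2 and 3, with median correlations of 0.988 and 0.985. The GAPDH difference averaged 1.44 ± 0.74 (SD, n = 6) at the higher and 1.20 ± 0.23 (SD, n = 6) at the lower doses (two-sided exact permutation over 924 splits, p = 0.639, adjusted over 2 measures p = 0.639). The actin control difference was 2.61 ± 0.61 and 2.38 ± 0.41 (SD, n = 6 each, exact permutation p = 0.506, adjusted p = 0.639). RNA quality therefore overlapped between the classes, and its part in the results was not tested beyond the values given beside them.

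The carboxylesterase gene Ces2c and the cytochrome P450 gene Cyp3a23-3a1 rose from the lower to the higher doses, and Dnase1l3, Mrc1, Aqp1, Gatm, Stab2 and Igfbp3 fell. In all, 8 of 14217 genes (0.0563%) were called, 2 higher (0.0141%) and 6 lower (0.0422%). The median difference over all genes was -0.0036. Unadjusted p-values under 0.05 numbered 1127 (7.93%), 497 higher (3.5%) and 630 lower (4.43%). Of all genes 48.8% had a positive and 51.2% a negative difference. The split depended on the scaling, with 7 higher and 8 lower when each array was centred on its median and 4 and 6 when quantile normalization was repeated. Without the 3 arrays that stood apart 0 genes were called higher and 1 lower, and none was among the 8, although 397 and 658 genes had an unadjusted p under 0.05. Omitting single rats also moved the count: it was 0 when rat 1 or rat 3 at 153 mg/kg was omitted (with 958 and 921 genes at an unadjusted p under 0.05). It was 2 on omitting rat 3 at 305.5 or rat 2 at 611 mg/kg, and 3 on omitting rat 2 at 305.5 or rat 3 at 611 mg/kg. Without rat 1 at 305.5 mg/kg it was 4, without rat 2 at 153 mg/kg 5 and without rat 1 at 611 mg/kg 7. It rose to 12, 10 and 9 on omitting rats 1, 2 and 3 at 76.5 mg/kg.

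Ces2c, a microsomal carboxylesterase that hydrolyses drug and lipid esters, rose by 1.22 ± 0.14 (adjusted p = 0.0103), or 2.32-fold. Its log2 signal was 10.20, 10.15 and 10.31 at 76.5 mg/kg, 10.07, 10.73 and 10.10 at 153, 11.60, 10.82 and 11.27 at 305.5 and 11.79, 11.64 and 11.75 at 611 mg/kg, and 8.76 to 9.04 in the 5 vehicle rats. Every higher-dose rat lay above every lower-dose rat, and the lower-dose rats in turn lay above all vehicle rats. Cyp3a23-3a1, an inducible P450 of the CYP3A family, rose by 0.57 ± 0.08 (adjusted p = 0.0243). It stood at 13.58, 13.59 and 13.32 (76.5 mg/kg) and 13.57, 13.82 and 13.55 (153 mg/kg) in the lower-dose rats and at 14.20, 13.95 and 14.14 (305.5 mg/kg) and 14.26, 14.31 and 14.0 (611 mg/kg) in the higher-dose rats. Again the classes did not overlap, while vehicle rats (12.52 to 13.56) reached into the lower-dose range. CYP3A genes resemble one another closely, so its probe set may also read other members.

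Among the genes that fell, Mrc1 encodes the mannose receptor of sinusoidal endothelial cells and macrophages. Its signal was 9.77, 10.12 and 9.87 at 76.5 mg/kg and 9.92, 9.79 and 9.95 at 153, against 9.26, 9.55 and 9.44 at 305.5 and 9.17, 9.20 and 9.10 at 611 mg/kg (fell by 0.62 ± 0.08, adjusted p = 0.0243). Lower-dose and vehicle rats (9.61 to 9.96) overlapped, and all higher-dose rats lay beneath both. Dnase1l3, a secreted DNase made by sinusoidal endothelial cells and macrophages, was 10.72, 10.84 and 10.64 (76.5 mg/kg) and 10.92, 10.78 and 10.83 (153 mg/kg) at the lower doses. It was 10.23, 10.39 and 10.50 at 305.5 and 10.13, 9.82 and 9.88 at 611 mg/kg (fell by 0.63 ± 0.08, adjusted p = 0.0224). Its classes did not overlap either, and vehicle rats held 10.64 to 10.93. Stab2, a scavenger receptor that takes hyaluronan from blood into sinusoidal endothelial cells, was 9.82, 9.94 and 9.75 (76.5 mg/kg) and 10.07, 10.17 and 10.02 (153 mg/kg), against 9.15, 9.69 and 9.81 (305.5 mg/kg) and 9.09, 8.91 and 9.06 (611 mg/kg; fell by 0.68 ± 0.11, adjusted p = 0.0445). Here 305.5 mg/kg rat 3 lay above 76.5 mg/kg rat 3, the only overlap among the 8 called genes. The 611 mg/kg rats were the lowest, but the difference between 611 and 305.5 mg/kg (-0.53 ± 0.15) did not pass (adjusted p = 0.27).

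Aqp1, the water channel of endothelium and bile duct cells, had signals of 8.20, 8.49 and 8.17 (76.5 mg/kg) and 8.38, 8.33 and 8.60 (153 mg/kg) at the lower doses. At the higher doses they were 7.80, 7.90 and 7.72 (305.5 mg/kg) and 7.85, 7.56 and 7.72 (611 mg/kg; fell by 0.61 ± 0.09, adjusted p = 0.0383). All higher-dose rats were beneath all lower-dose and vehicle rats (8.06 to 8.89). A dimmer probe set of Aqp1 differed by -0.23, so its 2 probe sets disagreed in size. Igfbp3, the main carrier of IGF1 in blood, made in rat liver chiefly by non-parenchymal cells, was 10.13, 9.93 and 10.39 (76.5 mg/kg) and 9.99, 10.05 and 10.17 (153 mg/kg), then 9.33, 9.46 and 9.42 (305.5 mg/kg) and 9.07, 9.60 and 9.61 (611 mg/kg; fell by 0.70 ± 0.11, adjusted p = 0.0445). Its other probe set differed by -0.76, and all higher-dose rats lay beneath the lower-dose and vehicle rats (10.04 to 10.41). Gatm, the first enzyme of creatine synthesis, was 8.0, 7.87 and 7.82 (76.5 mg/kg) and 8.06, 8.0 and 8.47 (153 mg/kg), then 7.25, 7.56 and 7.56 (305.5 mg/kg) and 7.19, 7.42 and 7.37 (611 mg/kg; fell by 0.65 ± 0.10, adjusted p = 0.0445). The groups did not overlap, while its dimmer probe set, near background, differed by -0.12. Over 28 alternative settings Ces2c lost its call in 5, Mrc1 and Dnase1l3 in 9, Cyp3a23-3a1 in 10, Aqp1 in 14, and Gatm, Igfbp3 and Stab2 in 18.

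**Figure D1:**
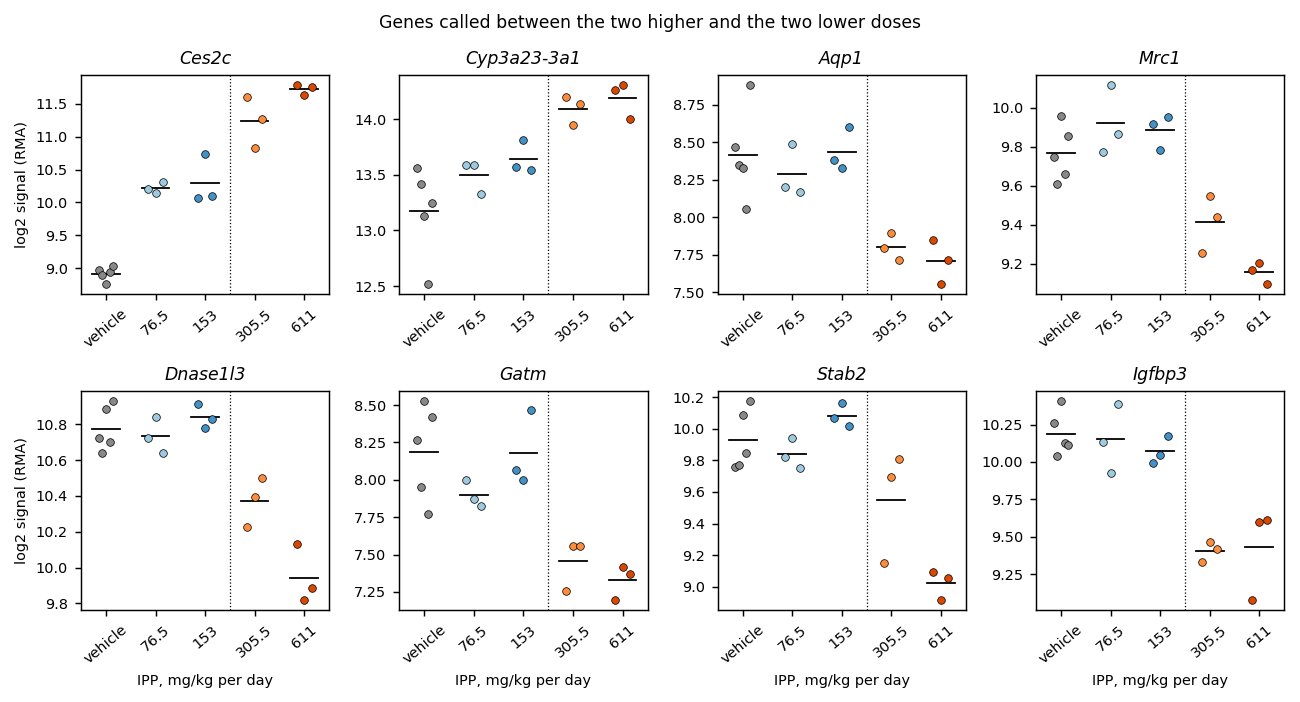
Log2 RMA signal (vertical axis) of the 8 called genes in each rat by daily IPP dose (horizontal axis, mg/kg, with vehicle at the left). Points are rats, bars are group means, and the dotted line parts the 2 lower from the 2 higher doses. Ces2c runs from 10.07 to 10.73 left of the line among treated rats and from 10.82 to 11.79 right of it.

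Genes next in line by p-value did not pass. Adgrl4, an adhesion receptor of endothelium, differed by -0.58 ± 0.10 and Timp2, a metalloproteinase inhibitor, by -0.42 ± 0.07 (adjusted p = 0.0529 each). In both all 6 higher-dose rats lay beneath the 6 lower-dose rats, Timp2 at 8.15 to 8.36 against 8.64 to 8.78. A second, dimmer probe set of Timp2 differed by -0.055. On the other side Alas1, the rate-limiting enzyme of heme synthesis, differed by 0.61 ± 0.10 and Anxa7, an annexin, by 0.48 ± 0.08 (adjusted p = 0.0529 each), with 0.23 for the dimmer probe set of Anxa7. Ccdc34 differed by 0.46 ± 0.08, at signals near background (3.57 to 3.97 and 3.97 to 4.51), and its other probe set by 0.09. The cell division genes Bub1, Spc24 and Ccnb2 differed by 0.78 ± 0.13, 0.83 ± 0.14 and 0.89 ± 0.16 (adjusted p = 0.0566 each, as for Ccdc34). For these last 3 the mean is made by the top dose, as described further on.

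Targets of CAR and PXR had mostly higher signals at the higher doses. Of 21 measured members 2 were called, Ces2c and Cyp3a23-3a1, and 13 had an unadjusted p under 0.05, all of them higher, beside 3.5% of all genes. The median difference was 0.30, and 18 of 21 were positive. Without the 3 arrays apart 0 were called and the median was 0.22, with 9 higher at an unadjusted p under 0.05, beside 397 of all 14217 genes. With 305.5 mg/kg alone against the lower doses 0 were called and the median was 0.16. In that setting 5 were higher at an unadjusted p under 0.05, beside 434 of all 14217 genes. The mean level of the list ran from 11.14 to 11.45 in the lower-dose and from 11.36 to 11.84 in the higher-dose rats, with 10.81 to 10.97 in vehicle. So the classes overlapped while both lay above vehicle.

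By role, the phase I enzymes differed unequally. Cyp3a2, a male-predominant CYP3A enzyme near the top of the signal range, was 14.46 to 14.61 at the lower and 14.65 to 14.70 at the higher doses, a difference of 0.13 ± 0.04 (adjusted p = 0.383). The rats of each class did not overlap, although the difference was small. Cyp3a18, another CYP3A member, differed by 0.30 ± 0.10, the retinal dehydrogenase Aldh1a1 by 0.43 ± 0.12, and the epoxide hydrolase Ephx1 by 0.36 ± 0.14 (adjusted p = 0.364, 0.278 and 0.538). The reductase Por, which passes electrons to P450 enzymes, differed by 0.31 ± 0.18 and Cyp3a9 by -0.40 ± 0.25. Cyp2b3 and Cyp2c7 differed by -0.04 ± 0.07 and 0.01 ± 0.08, within the spread. Of the conjugating enzymes, Gsta3 differed by 0.64 ± 0.24 and Ugt2b1 by 0.30 ± 0.12 (adjusted p = 0.511 and 0.533). The Gsta3 difference lay mainly at the top dose, with means of 9.01, 9.19, 9.24 and 10.23 over the 4 doses and 0.99 ± 0.34 between 611 and 305.5 mg/kg (adjusted p = 0.333).

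The exporters of the list lay on the same side. Abcc2, which pumps conjugates into bile, was 11.16, 11.20 and 10.78 (76.5 mg/kg) and 11.41, 11.40 and 11.11 (153 mg/kg) at the lower doses and 11.57, 11.57 and 11.63 (305.5 mg/kg) and 11.62, 11.57 and 11.49 (611 mg/kg) at the higher ones (0.40 ± 0.09, adjusted p = 0.113). Its higher-dose rats kept within a narrow band above all others, including vehicle, whose highest rat was 11.21. Abcc3, which exports conjugates to blood, differed by 1.02 ± 0.32 and the drug pump Abcb1a by 0.74 ± 0.22 (adjusted p = 0.348 and 0.308). Both overlapped between classes, and Abcc3 in vehicle was only 6.36 to 6.92 against 7.53 to 9.37 and 8.94 to 10.43. For Abcc3 most of the distance from vehicle was therefore present at the lower doses.

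The Cyp3a23-3a1 promoter is shown because its gene was called and because direct repeats read by PXR are known in rat CYP3A promoters. The sequence covers 250 bases before to 50 after the start and comes from RefSeq, build GRCr8, chr12:14398754-14399053, minus strand. Capitals mark the 1 match to AGTTCA, any 3 bases (NNN) and AGTTCA again, a direct repeat that lies on the other strand and reads TGAACTTCATGAACT here, with its first base at -144 from the start.
Cyp3a23-3a1: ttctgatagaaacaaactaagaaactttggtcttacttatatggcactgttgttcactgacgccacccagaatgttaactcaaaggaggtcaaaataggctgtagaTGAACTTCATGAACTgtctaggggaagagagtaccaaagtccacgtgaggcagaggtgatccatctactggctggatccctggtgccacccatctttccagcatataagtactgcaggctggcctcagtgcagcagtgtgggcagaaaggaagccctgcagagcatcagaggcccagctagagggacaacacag
Searched on both strands, that motif was in 2 of 33469 promoters of this length (0.00598%), those of Cyp3a23-3a1 and Cyp3a2. It was chosen because such repeats are known in rat CYP3A promoters, so finding it in these 2 is not an independent result. Among 19 CAR and PXR targets with a promoter sequence these were the 2 with the motif. A match describes these letters only.

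NRF2 and glutathione genes, which answer oxidative and electrophilic stress, had 0 of 28 members called and a median of 0.14. Of the 28, 7 had an unadjusted p under 0.05, all higher, beside 3.5% of all genes. Gsta3, Gstm1 and Ephx1 are also on the list of CAR and PXR targets, so the counts of these lists are not separate. Gsta1, a glutathione transferase, was 13.67 to 13.87 and 13.91 to 14.07 without overlap (0.20 ± 0.05, adjusted p = 0.213). Slc7a11, the cystine importer, differed by 0.63 ± 0.21, and Srxn1, which restores peroxiredoxins, by 0.30 ± 0.10 (adjusted p = 0.382 and 0.395). Slc7a11 was highest at 305.5 mg/kg, with means of 5.67, 5.63, 6.66 and 5.90 over the 4 doses and -0.76 ± 0.29 between 611 and 305.5 mg/kg (adjusted p = 0.356). The glutathione synthesis gene Gclm differed by 0.44 ± 0.20, Nqo1 by 0.30 ± 0.18 and Hmox1 by -0.41 ± 0.43, none past the test. Of 31 serine esterases listed, enzymes that organophosphates can bind, 18 were measured. Ces2c was the only one of the 18 called, beside 0.0141% of all genes called higher. Ces2c and Mgll were the 2 members with an unadjusted p under 0.05, both higher, beside 3.5% of all genes. The list median was 0.06. The carboxylesterase genes Ces1c, Ces1d, Ces1e and Ces5a differed by 0.05, 0.09, 0.15 and 0.0039 and did not pass.

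Genes that mark cells of the sinusoid wall were lower at the higher doses, and the level of the endothelial list parted the classes without overlap. Of 12 endothelial markers 1 was called (Stab2), 9 had an unadjusted p under 0.05, all lower, beside 4.43% of all genes, and all 12 were negative with a median of -0.40. The mean level of the list was 8.55 to 8.79 in the lower-dose rats, 8.14 to 8.49 in the higher-dose rats and 8.58 to 8.83 in vehicle. In terms of dose, its medians minus vehicle were -0.02, 0.04, -0.40 and -0.38 from the lowest to the highest amount. In these medians the step lay between 153 and 305.5 mg/kg. Without the 3 arrays apart 9 of 12 were lower at an unadjusted p under 0.05, beside 658 of all 14217 genes. The median was then -0.35, with 0 called. With 305.5 mg/kg alone against the lower doses the median was -0.39.

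Pecam1, a junction protein of all endothelium, was 8.08, 8.31 and 8.26 (76.5 mg/kg) and 8.18, 8.15 and 8.03 (153 mg/kg) at the lower and 7.77, 7.82 and 7.80 (305.5 mg/kg) and 7.70, 7.84 and 7.82 (611 mg/kg) at the higher doses (-0.38 ± 0.07, adjusted p = 0.0768). Emcn, an endothelial sialomucin, was 8.04, 8.53 and 8.19 (76.5 mg/kg) and 8.40, 8.46 and 8.65 (153 mg/kg), then 7.72, 7.99 and 7.96 (305.5 mg/kg) and 8.04, 7.81 and 7.62 (611 mg/kg; -0.52 ± 0.11, adjusted p = 0.0877). For both no rats of the classes overlapped, although for Emcn the nearest pair had equal rounded values. Lyve1, the hyaluronan receptor of sinusoidal endothelium, was 10.41 to 10.89 and 9.74 to 10.54 (-0.58 ± 0.12, adjusted p = 0.0938) and Kdr, the main VEGF receptor, 9.84 to 10.31 and 9.57 to 9.89 (-0.42 ± 0.09, adjusted p = 0.109). The angiopoietin receptor Tek differed by -0.44 ± 0.11 and its relative Tie1 by -0.57 ± 0.15. Vwf, more typical of larger vessels than of sinusoids, differed by -0.19 ± 0.12, Egfl7 by -0.17 ± 0.12 and the VEGF receptor Flt1 by -0.15 ± 0.12. The smaller differences belonged to these last 3, none of which had an unadjusted p under 0.05.

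Macrophage markers had 0 of 11 members called and 7 with an unadjusted p under 0.05, all lower, beside 4.43% of all genes. All 11 were negative (median -0.32). The complement subunit genes C1qa and C1qc, which Kupffer cells express highly, differed by -0.44 ± 0.11 and -0.43 ± 0.11 (adjusted p = 0.167 and 0.193). The Kupffer cell lectin Clec4f differed by -0.31 ± 0.11, the macrophage receptor Adgre1 by -0.34 ± 0.11, the haemoglobin scavenger receptor Cd163 by -0.32 ± 0.10 and the growth factor receptor Csf1r by -0.33 ± 0.11. Cd14 and Lyz2, which other myeloid cells share, differed by -0.02 ± 0.17 and -0.02 ± 0.24. The list's mean level was 9.77 to 10.17 at the lower doses and 9.52 to 9.86 at the higher, so the classes overlapped, and vehicle covered 9.63 to 10.13. Without the 3 arrays apart 4 of 11 were lower at an unadjusted p under 0.05, beside 658 of all 14217 genes. The list median was then -0.28.

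Stellate cell and fibroblast markers had 0 of 16 called (median -0.28, 15 negative). Of the 16, 7 had an unadjusted p under 0.05, all lower, beside 4.43% of all genes. Lrat, which makes the retinyl esters stored by stellate cells, was 8.09 to 8.39 and 7.35 to 8.12 (-0.48 ± 0.11, adjusted p = 0.132), with only 611 mg/kg rat 2 within the lower-dose range. Reln, which marks stellate cells in liver, differed by -0.29 ± 0.09, Pdgfra by -0.35 ± 0.10 and the matrix proteoglycan Lum by -0.71 ± 0.23. Acta2, Des and Col1a1 stood closer to 0, at -0.05 ± 0.11, -0.08 ± 0.10 and 0.06 ± 0.09. They were picked from a list whose upper quartile was -0.12, and do not stand for its contractile or matrix genes as a group. The list's mean level was 7.42 to 7.63 at the lower doses, 7.16 to 7.47 at the higher and 7.57 to 7.98 in vehicle. Medians minus vehicle were -0.09, -0.21, -0.29 and -0.40, a spacing unlike that of the endothelial list, though that contrast itself was not tested.

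**Figure D2:**
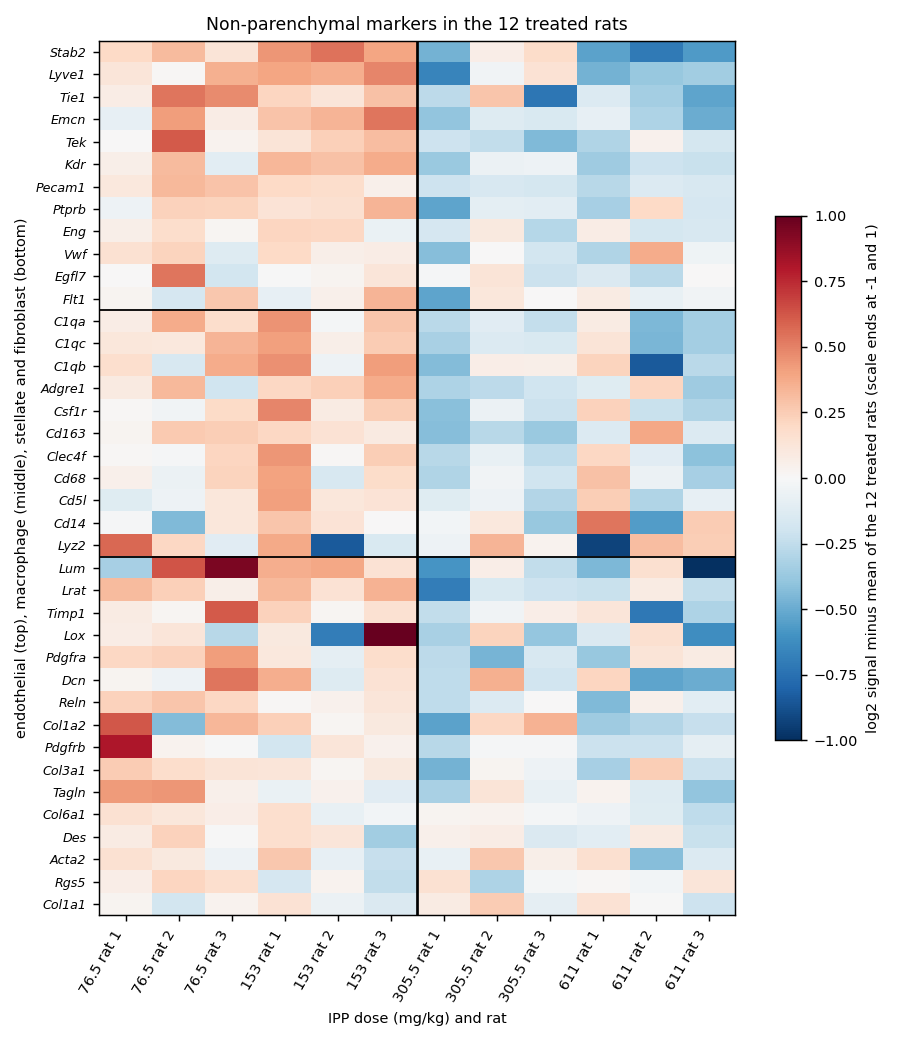
Log2 signal minus the mean of the 12 treated rats (colour, ends of the scale at -1 and 1) for 12 endothelial, 11 macrophage and 16 stellate cell and fibroblast markers (rows, in the order of blocks from the top) in each treated rat (columns, by dose in mg/kg). The vertical line parts the lower from the higher doses. Rows of the top block are mainly red left of the line and mainly blue right of it, least so for Vwf, Egfl7 and Flt1.

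In whole tissue, fewer cells of a type and less of their RNA per cell cannot be told apart, and this holds for all 3 marker groups. Hepatocyte markers had a median of -0.0048 over 14 members and 0 called. Cholangiocyte markers had a median of -0.010 (8 members) and lymphocyte markers of -0.15 (12 members), with 0 called in either. Neutrophil markers (7 members, median -0.10) and adipocyte markers (7, median -0.12) had 0 called each, as had pancreas markers (12, median -0.0023), included because that tissue lies nearby. Red cell and erythroid genes had 0 of 7 called and a median of -0.15. Of the 7, 3 had an unadjusted p under 0.05, all lower, beside 4.43% of all genes. Hbb, a globin of red cells and hence a measure of blood in the sample, was 13.22, 13.33 and 12.80 at 305.5 and 12.25, 11.56 and 11.13 at 611 mg/kg against 12.61 to 13.66 at the lower doses. In Hbb the 611 mg/kg rats lay beneath all other treated rats. The part of blood content in the marker differences was not tested.

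Across all genes, 92 (0.647%) had classes that did not overlap, 17 with all higher-dose rats above (0.12%) and 75 with all beneath (0.528%). The genes named from them here were picked after their values were seen, and no grouping of them was counted or tested. Among those beneath were Fcgr2b, an Fc receptor that clears immune complexes (-0.66 ± 0.12, adjusted p = 0.0566), the scavenger receptor Stab1 (-0.42 ± 0.10), coagulation factor F8 (-0.24 ± 0.07) and the phosphodiesterase Pde2a (-0.51 ± 0.09). The connexin Gja4 differed by -0.30 ± 0.08, the junction molecule Jam2 by -0.48 ± 0.14 and Ramp1, a subunit of the CGRP receptor, by -0.47 ± 0.10. Ficolin Fcna differed by -0.56 ± 0.10, the granule proteoglycan Srgn by -0.48 ± 0.09, the chemokine Ccl5 by -0.69 ± 0.12, the lymphocyte adhesion molecule Cd48 by -0.47 ± 0.12 and the interleukin receptor subunit Il2rb by -0.26 ± 0.07. Mgp, a calcification inhibitor, differed by -0.57 ± 0.12, the collagen chaperone Serpinh1 by -0.38 ± 0.09 and the elastic fibre protein Emilin1 by -0.31 ± 0.07. Masp1, a protease of the lectin pathway of complement, differed by -0.32 ± 0.07 and Clpx, the mitochondrial unfoldase that activates and turns over ALAS1, by -0.28 ± 0.07. Clpx was 11.17 to 11.36 and 10.85 to 11.14, opposite in direction to Alas1. Txnip, a glucose-induced inhibitor of thioredoxin, differed by -0.51 ± 0.11 (adjusted p = 0.109).

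The 17 genes above comprised Ces2c, Cyp3a23-3a1, Abcc2, Cyp3a2, Gsta1 and Ccdc34 and 11 more. Of the 924 ways to split 12 rats into 6 and 6, 1 puts the 6 highest values in the higher class. The 0.12% of genes found above was near that share, so lying above without overlap does not by itself mark a rise. Among these were the desmosomal plaque genes Dsp (9.44 to 9.84 against 9.86 to 10.10, 0.28 ± 0.09) and Ppl (0.62 ± 0.13) and the tight junction gene Cldn3 (0.28 ± 0.08), with adjusted p = 0.336, 0.112 and 0.262. Cxcl9, an interferon-induced chemokine, was 8.06 to 8.42 and 8.56 to 9.25 (0.59 ± 0.11, adjusted p = 0.0566). App, the amyloid precursor protein, was 11.23 to 11.67 and 11.75 to 12.17 (0.45 ± 0.08, adjusted p = 0.0566). The others were Psmd5, a chaperone of proteasome assembly (0.31 ± 0.08), the kinetochore gene Dsn1 (0.21 ± 0.08), and Amigo1, Dennd1a, Ribc1 and Wdcp, with differences of 0.19, 0.18, 0.39 and 0.29.

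Mitosis genes had the highest median of the 41 lists, but their difference came from the top dose. Of 34 members 0 were called in the comparison of classes, and all 34 were positive (median 0.51). An unadjusted p under 0.05 was found for 26, all higher, beside 3.5% of all genes. Medians minus vehicle were -0.14, -0.12, -0.10 and 0.82 over the 4 doses. With 305.5 mg/kg alone against the lower doses the median was 0.06. In that setting 1 member was higher at an unadjusted p under 0.05, beside 434 of all 14217 genes. The list's mean level was 5.92 to 6.16 in the lower-dose rats, 5.94 to 6.23 at 305.5 and 6.75 to 7.56 at 611 mg/kg, with 5.82 to 6.46 in vehicle. In 24 of 34 members (70.6%) all 3 rats at 611 mg/kg lay above the other 9 treated rats, as they did in 2.04% of all genes. A mean of the 2 higher doses therefore describes neither dose for this list.

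The direct test of 611 against 305.5 mg/kg called 24 genes higher (0.169%) and 0 lower, with a smallest adjusted p of 0.0735 among the lower. At an unadjusted p under 0.05 there were 1785 genes (12.6%), 1058 higher (7.44%) and 727 lower (5.11%). Of the 24, 10 belonged to the mitosis list and 1, the ribonucleotide reductase gene Rrm1, to the DNA replication list. Ccna2, the cyclin of S phase and mitotic entry, was 4.97, 4.26 and 4.78 at 305.5 and 7.54, 6.49 and 6.63 at 611 mg/kg (rose by 2.22 ± 0.24, adjusted p = 0.00305). The spindle checkpoint kinase gene Bub1 was 4.63, 4.30 and 4.51 (305.5 mg/kg) and 6.54, 5.98 and 6.01 (611 mg/kg; rose by 1.70 ± 0.19, adjusted p = 0.00305). At the other doses both stood near background, a range in which array differences are compressed. Depdc1, which had the smallest p, and Trim59 were as dim at 305.5 mg/kg (rose by 1.32 ± 0.14 and 1.30 ± 0.17, adjusted p = 0.00305 and 0.0131).

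Cyclin, motor and cytokinesis genes were among those called. Ccnb2, a cyclin of CDK1, was 6.99, 6.64 and 6.77 at 305.5 and 8.83, 8.07 and 8.31 at 611 mg/kg (rose by 1.60 ± 0.23, adjusted p = 0.0131), with 6.10 to 6.97 in the lower-dose rats. The cytokinesis exchange factor Ect2 was 6.27, 5.16 and 5.37 (305.5 mg/kg) and 8.49, 7.89 and 7.34 (611 mg/kg; rose by 2.31 ± 0.32, adjusted p = 0.0131), and the phosphatase gene Cdkn3 rose by 2.41 ± 0.34 (adjusted p = 0.0131). In each the 611 mg/kg rats formed a group of their own, with rat 1 the highest. The proliferation marker Mki67 rose by 1.83 ± 0.28 (adjusted p = 0.0177), the cytokinesis motor Kif20a by 1.31 ± 0.23 and the survival and spindle gene Birc5 by 0.88 ± 0.15 (adjusted p = 0.0409 and 0.0392). The kinetochore genes Spc24 and Spc25 rose by 1.45 ± 0.20 and 1.52 ± 0.24 (adjusted p = 0.0131 and 0.0254). Cdk1 itself was 6.49, 6.11 and 6.05 (305.5 mg/kg) and 8.46, 6.94 and 7.50 (611 mg/kg) and did not pass (1.42 ± 0.28, adjusted p = 0.0803), nor did Plk1 (0.17 ± 0.20), Cdc20 (0.95 ± 0.29) or the regulator Foxm1 (0.18 ± 0.18).

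Of 30 DNA replication genes 0 were called between the classes and 1 between 611 and 305.5 mg/kg (Rrm1, rose by 0.71 ± 0.12, adjusted p = 0.0409), with list medians of 0.04 and 0.20. Between 611 and 305.5 mg/kg 25 of 30 were positive and 12 had an unadjusted p under 0.05, all higher, beside 7.44% of all genes. With 305.5 mg/kg alone against the lower doses the median was -0.12. In that setting 2 had an unadjusted p under 0.05, both lower, beside 671 of all 14217 genes. Its difference from the mitosis list was not tested. The helicase subunits Mcm2, Mcm3, Mcm4, Mcm5, Mcm6 and Mcm7 differed between 611 and 305.5 mg/kg by 0.29, -0.15, 0.58, 0.04, 0.73 and 0.17, none past the test. Tk1, thymidine kinase, differed between the classes by 0.41 ± 0.08 (adjusted p = 0.0843). Outside both lists Usp18, an interferon-induced protease, rose from 305.5 to 611 mg/kg by 1.20 ± 0.18 (adjusted p = 0.0143) and the helicase-like gene Hltf by 0.81 ± 0.14 (adjusted p = 0.0473). Usp18 was also among the 4 genes with the smallest p for a rise from 76.5 to 153 mg/kg, without passing there. The count of 24 was 3 when rat 2 or rat 3 at 305.5 mg/kg was omitted and 43 when rat 3 at 76.5 mg/kg was, and 39 without the 3 arrays apart, 20 of them shared. It was 14 on omitting rat 1 at 153 mg/kg and 15 on omitting rat 1 at 76.5 mg/kg.

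**Figure D3:**
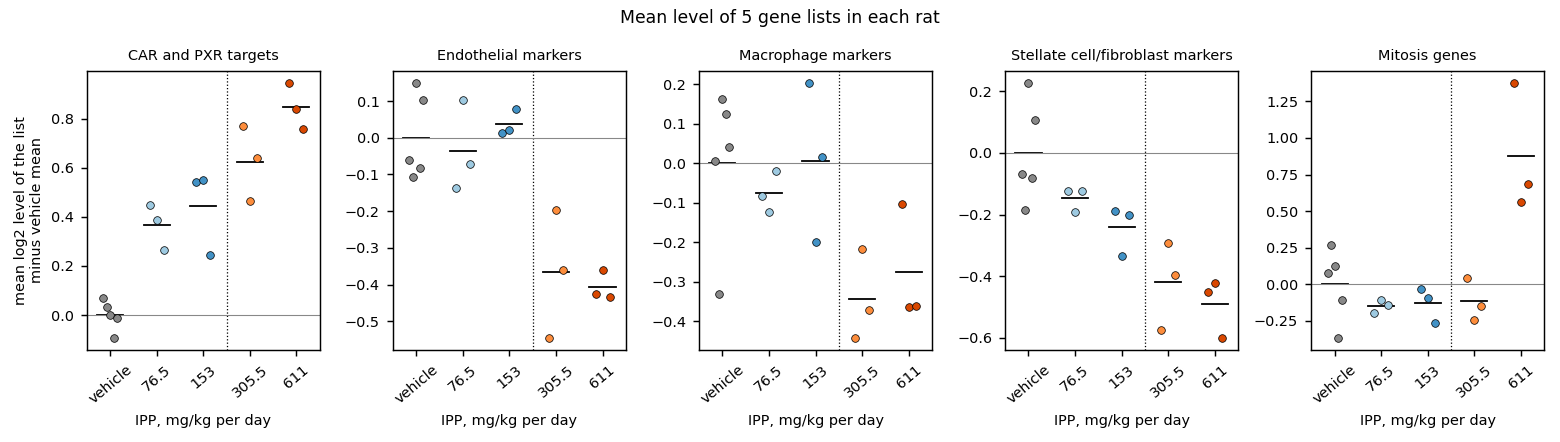
Mean log2 level of the members of 5 gene lists in each rat, minus the vehicle mean (vertical axis), by daily IPP dose (horizontal axis, mg/kg). Points are rats, bars group means, and the dotted line parts lower from higher doses. The mitosis panel is flat up to 305.5 mg/kg and high in all 3 rats at 611 mg/kg, while the endothelial panel drops between 153 and 305.5 mg/kg.

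Promoters of 3 mitosis genes are shown, those of Ccnb2 and Ect2, which were called, and of Cdk1, which was not, because 10 members of this list rose together from 305.5 to 611 mg/kg and many such promoters are known to hold CCAAT boxes and the CHR element TTTGAA, which the MuvB complexes read. They come from RefSeq, build GRCr8, and cover 250 bases before to 50 after the start. Ccnb2 is at chr8:79981609-79981908 (minus strand), Ect2 at chr2:111966577-111966876 (minus strand) and Cdk1 at chr20:19265043-19265342 (plus strand). Capitals mark CCAAT and TTTGAA, or their reverse complements.
Ccnb2: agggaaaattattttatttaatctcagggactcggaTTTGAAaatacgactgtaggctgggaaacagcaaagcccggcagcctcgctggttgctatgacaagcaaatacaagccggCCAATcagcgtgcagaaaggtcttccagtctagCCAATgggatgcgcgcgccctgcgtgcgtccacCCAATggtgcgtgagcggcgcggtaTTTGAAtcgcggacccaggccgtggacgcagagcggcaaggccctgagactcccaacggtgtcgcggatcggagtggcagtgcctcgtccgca
Ect2: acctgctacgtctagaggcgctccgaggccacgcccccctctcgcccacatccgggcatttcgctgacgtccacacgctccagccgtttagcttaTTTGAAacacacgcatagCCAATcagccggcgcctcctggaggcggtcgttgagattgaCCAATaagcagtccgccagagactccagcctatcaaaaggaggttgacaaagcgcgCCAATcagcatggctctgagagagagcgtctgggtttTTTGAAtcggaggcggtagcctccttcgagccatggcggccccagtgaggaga
Cdk1: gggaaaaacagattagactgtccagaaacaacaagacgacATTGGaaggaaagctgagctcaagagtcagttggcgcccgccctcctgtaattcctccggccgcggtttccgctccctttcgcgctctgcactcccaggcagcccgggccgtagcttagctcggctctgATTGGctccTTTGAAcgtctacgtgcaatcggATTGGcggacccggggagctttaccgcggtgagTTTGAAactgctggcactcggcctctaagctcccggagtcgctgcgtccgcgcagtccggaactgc
Each of the 3 held 3 CCAAT and 2 TTTGAA matches. Searched on both strands, CCAAT was in 22 of the 28 mitosis promoters available (78.6%) and in 37.5% of all 33469 promoters of the same length. TTTGAA was in 19 of 28 (67.9%) and in 18.3% of all, and both motifs in 17 of 28 (60.7%) and 7.41%. The 2 motifs do not overlap in letters, these are descriptions of sequence, and the list was not chosen at random from all genes.

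Between the 2 lower doses no gene was called. For 153 minus 76.5 mg/kg limma called 0 genes (0%) higher and 0 lower, with 857 genes (6.03%) at an unadjusted p under 0.05, 452 higher (3.18%) and 405 lower (2.85%), and a smallest adjusted p of 0.654. With array weights, which give 76.5 mg/kg rat 1 a weight of 5.22 and rats 2 and 3 weights of 0.333 and 0.290, 14 higher and 19 lower genes were called. The smallest p-values among higher genes were those of the sulfotransferase Sult1c2 (1.42 ± 0.29), the fatty acid receptor Ppara (0.80 ± 0.16), Usp18 (0.86 ± 0.18) and the class I histocompatibility gene RT1-S3 (0.56 ± 0.12). Among lower genes they were those of Ly6al (-2.10 ± 0.48), the acyl-CoA synthetase Acsm2 (-0.97 ± 0.17), the cytokine receptor Il20rb (-0.46 ± 0.10) and Tmem132c (-0.36 ± 0.08). All 8 had the adjusted p of 0.654.

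A slope on log2 dose over the 12 treated rats, in units of log2 signal per doubling, called 5 genes (0.0352%), 4 higher (0.0281%) and 1 lower (0.00703%). At an unadjusted p under 0.05 there were 1555 genes (10.9%), 869 higher (6.11%) and 686 lower (4.83%). Ces2c rose by 0.54 ± 0.07, Alas1 by 0.33 ± 0.05, Cyp3a23-3a1 by 0.25 ± 0.04 and Ccdc34 by 0.22 ± 0.03 per doubling (limma, adjusted p = 0.0167, 0.0213, 0.0233 and 0.037), and Mrc1 fell by 0.28 ± 0.04 (adjusted p = 0.0233). The probe set of Ccdc34 lay near background at every dose, as given above. Alas1, which passed here and not between the classes, was 10.68, 10.59 and 10.77 at 305.5 and 11.50, 11.19 and 11.02 at 611 mg/kg. Next in order were Cxcl9 (0.27 ± 0.05), Dnase1l3 (-0.28 ± 0.05), the matrix protein Tinagl1 (-0.24 ± 0.04), the growth factor Pdgfd (-0.15 ± 0.03) and Adgrl4 (-0.27 ± 0.05), none past the test. No gene was called when rat 1 or rat 2 at 611 mg/kg or the 3 arrays apart were omitted, and 17 and 9 were on omitting rat 1 or rat 3 at 76.5 mg/kg. The call on Mrc1 rests on 153 mg/kg rat 2 too, since 0 lower genes were called when it was omitted.

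Among the other metabolic lists few single genes stood out. Of all 41 lists, 37 had 0 called members, and 5 had a median beyond 0.25 in either direction. Growth hormone and STAT5 genes had 1 of 20 called (Igfbp3) and a median of -0.08. Socs2, which growth hormone induces through STAT5, was 7.71, 7.41 and 7.02 (76.5 mg/kg) and 6.81, 7.46 and 7.88 (153 mg/kg) at the lower and 6.79, 6.73 and 6.55 (305.5 mg/kg) and 6.85, 5.33 and 5.60 (611 mg/kg) at the higher doses (-1.07 ± 0.24, adjusted p = 0.135). Igf1 differed by -0.12 ± 0.06 and Ghr by -0.10 ± 0.09. The list's median was 0.055 without the 3 arrays apart. Cholesterol synthesis genes had 19 of 20 positive with a median of 0.21, but 0 called and 0 with an unadjusted p under 0.05, and the median was -0.08 without the 3 arrays. It was 0.0071 with 305.5 mg/kg alone and 0.34 between 611 and 305.5 mg/kg. Cytosolic ribosomal proteins had 28 of 30 negative (median -0.09) and oxidative phosphorylation subunits 36 of 41 (median -0.05), with 0 called in either. At an unadjusted p under 0.05 they had 7 and 1, all lower, beside 4.43% of all genes.

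The mean level of hydroxysteroid dehydrogenases and steroid enzymes was the other of 2 list levels without overlap, at 11.37 to 11.63 in the lower-dose and 11.64 to 11.77 in the higher-dose rats, with 11.36 to 11.52 in vehicle. Its 15 members held 0 calls. Hsd17b2, which inactivates sex steroids, was 12.28, 12.33 and 10.41 at 76.5, 13.09, 12.81 and 12.36 at 153 and 12.86 to 13.15 at the higher doses (0.77 ± 0.27, adjusted p = 0.425). The low value of 76.5 mg/kg rat 3, one of the arrays apart, lay near vehicle (10.05 to 10.92). Akr1d1, the bile acid and steroid 5-beta reductase, differed by 0.30 ± 0.08 (adjusted p = 0.258).

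**Figure D4:**
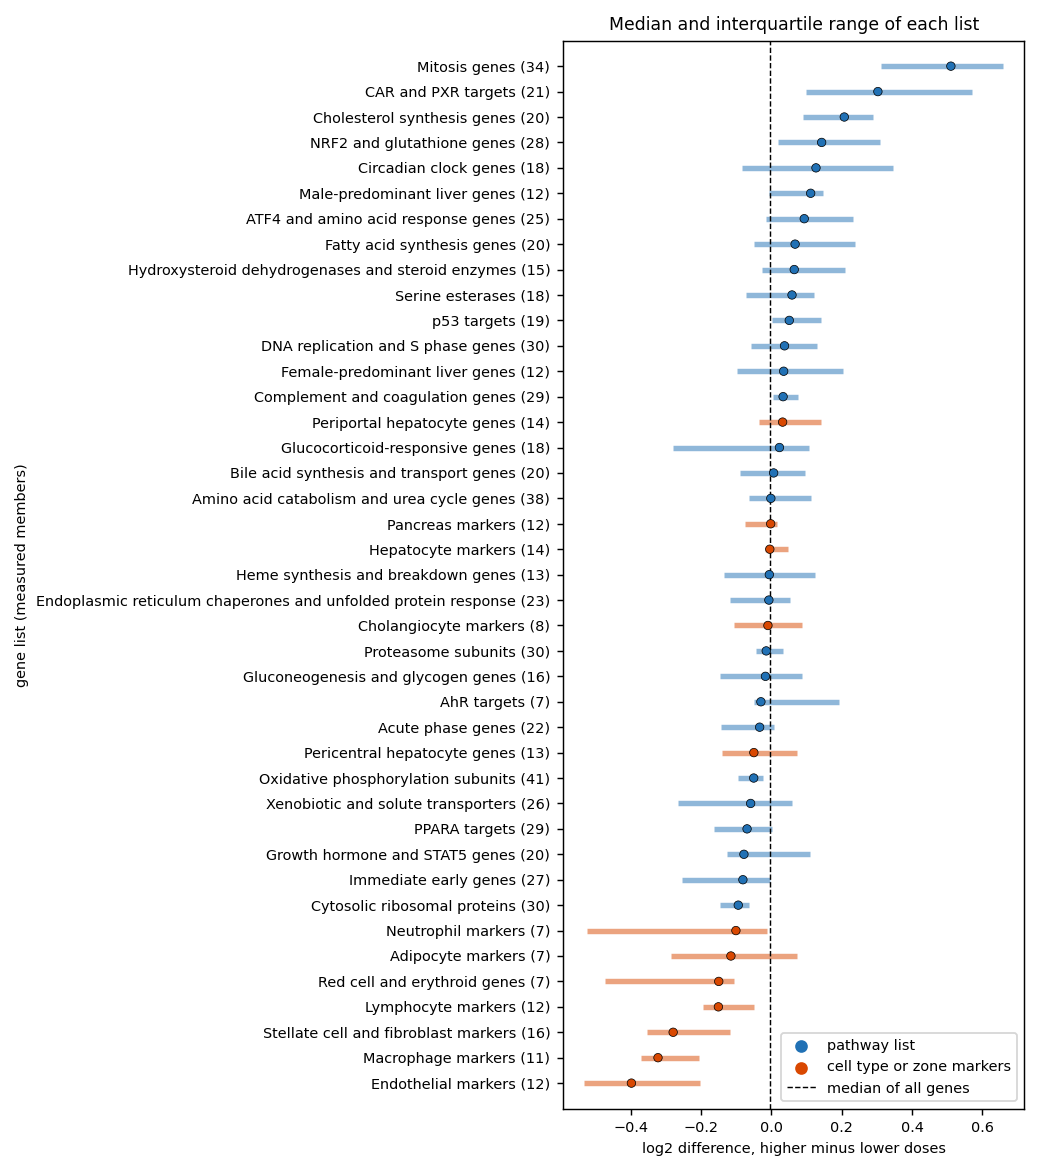
Median (point) and interquartile range (bar) of the log2 difference between the higher and lower doses over the measured members of 41 gene lists (vertical axis, member number in brackets). The dashed line is the median of all genes, and colours separate pathway lists from markers of cell types or liver zones. Mitosis genes end the scale at 0.51 and endothelial markers at -0.40.

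Lists of the endoplasmic reticulum stress response (23 members, median -0.0074), acute phase genes (22, -0.03), complement and coagulation (29, 0.03), proteasome subunits (30, -0.01), p53 targets (19, 0.05) and fatty acid synthesis (20, 0.07) held 0 calls each. The same held for bile acid (20, 0.0061), amino acid catabolism (38, -0.0018), gluconeogenesis (16, -0.02) and heme genes (13, -0.0061). Of the bile acid genes 3 were higher and 3 lower at an unadjusted p under 0.05, beside 3.5% and 4.43% of all genes. AhR targets, another route by which aromatic chemicals raise P450 genes, had 0 of 7 called and a median of -0.03. Cyp1a1, its most responsive target, was 5.73 to 6.31 at the lower doses, and 6.48, 5.96 and 6.87 (305.5 mg/kg) and 6.87, 6.62 and 8.85 (611 mg/kg) at the higher (0.82 ± 0.31, adjusted p = 0.504). Genes that glucocorticoids induce (18, 0.02) had 0 calls, with 3 lower and 0 higher at an unadjusted p under 0.05, beside 4.43% and 3.5% of all genes. Genes of the amino acid response under ATF4 had 0 of 25 called and a median of 0.09, which describes neither higher dose. With 305.5 mg/kg alone against the lower doses it was 0.23, with 5 higher at an unadjusted p under 0.05, beside 434 of all 14217 genes. From 305.5 to 611 mg/kg it was -0.18, with 22 of 25 negative. In that contrast 6 were lower at an unadjusted p under 0.05 (0 called), beside 5.11% of all genes. Male- and female-predominant liver genes (12 each) had medians of 0.11 and 0.03, and pericentral and periportal hepatocyte genes (13 and 14) of -0.05 and 0.03, with 0 calls. Immediate early genes (27, -0.08) and xenobiotic and solute transporters (26, -0.06) had none either. Of the immediate early genes 22 were negative, and 3 were lower and 0 higher at an unadjusted p under 0.05. Of the transporters 3 were higher and 4 lower at that p, beside 3.5% and 4.43% of all genes.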

How the data were processed

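Liver RNA of 17 rats was hybridised to 17 one-colour oligonucleotide arrays. The authors deposited log2 values per probe set, made by RMA per the submitters' processing notes; the labels name no software version or settings. Of 31099 probe sets, 20826 had 1 gene symbol in GEO's platform annotation, which is not current, 436 had several and 9780 none, and 57 were controls. All 20826 with 1 symbol entered, 20758 were matched to current gene IDs, and the brightest probe set over all arrays stood for each of 14217 genes. The 12 treated arrays were fitted in limma 3.58.1 (R 4.3.3) with the 4 doses as groups, an intensity trend in eBayes and Benjamini-Hochberg adjustment over all genes. Contrasts were the mean of 305.5 and 611 minus the mean of 76.5 and 153 mg/kg, 153 minus 76.5, and 611 minus 305.5, and a second fit took the slope on log2 dose. The scripts were tested on simulated data. Values of list members are described by counts and medians. A gene with unadjusted p under 0.05 is not a call.

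Members and gene lists were chosen with earlier results of these data known. The text names by rule the called genes and those with the smallest p in each direction of each contrast, and members of the lists. Genes picked from those whose classes do not overlap, and other exceptions, were named after their values were seen. Each sample is 1 rat by the treatment protocol, and no 2 arrays held identical values. Replicate numbers were not taken to pair samples. Deviations of same-number pairs correlated from -0.26 to 0.40, with 5 of 18 pairs over 0.1, and those of pairs of unlike number from -0.35 to 0.34. Alternatives changed the normalization, the probe set rule, the filter on dim genes, array weights, variance settings, RNA quality as a covariate, and the arrays included. Promoters came from RefSeq tables (GRCr8), searched with Python 3.11.15.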

Additional observations from a re-analysis of the deposited data

Results flagged for a closer look

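In 6 of 38 groups of 6 rats tested, 1 rat stood further from the others than Dixon's critical value for 6 samples allows. Chance gives about 1 in 20 for independent groups of rats treated alike. Each group here pooled rats of 2 doses, and the groups shared rats, so the count cannot be set against that share. Ces2c was 10.73 in 153 mg/kg rat 2, against 10.07 to 10.31 in the other lower-dose rats. Ccdc34 was 3.57 in 76.5 mg/kg rat 3, against 3.87 to 3.97. Timp2 was 8.15 in 611 mg/kg rat 3, against 8.32 to 8.36 in the other higher-dose rats. The 3 other values belonged to 1 array, that of 611 mg/kg rat 2. Its GAPDH control difference (3' minus 5') was 2.89, against 0.96 to 1.53 at the higher doses, and its actin difference 3.83, against 2.23 to 2.57. Its median correlation with the treated arrays was 0.985, against 0.992 to 0.993.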

How the results depend on the processing

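Calls of higher and lower genes between the dose classes (2 and 6) became 2 and 3 with classes only, 12 and 32 with all 17 arrays, 2 and 2 with probe sets averaged, all kept, or the GAPDH covariate, 8 and 19 without the dimmest 40%, 7 and 8 median-centred, and 4 and 6 quantile-normalized again. They were 112 and 260 with array weights, 4 and 9 without trend, 3 and 8 robust, and 0 and 1 without the 3 arrays apart. With 305.5 alone, against 153 alone, or at adjusted p under 0.01 they were 0 and 0 (434 and 671, and 386 and 601, at unadjusted p under 0.05 in the first pair). Leaving out 1 rat gave 0 to 5 and 0 to 8. The replicate numbers were not taken to pair samples. A replicate block gave 8 and 12, with 0 and 0 between the lower doses, 21 and 0 between the higher doses, and 8 and 5 for the slope (4 and 1). Between the lower doses (0 and 0) array weights gave 14 and 19, the set without 3 arrays 0 and 2, and single omissions 0 to 2 and 0 to 1. Between the higher doses (24 and 0) the counts were 41 and 5 with all arrays, 25 and 1 averaged, 17 with all probe sets, 5 without dim genes, 16 centred or with the covariate, 202 and 53 weighted, 39 without 3 arrays, and 3 to 43 and 0 to 2 without 1 rat. The slope gave 0 without 3 arrays, and 0 to 10 and 0 to 7 without 1 rat. With 305.5 alone Bub1 was -0.072, Hbb 0.017, Krt7 0.014, Perp -0.011 and Rrm1 -0.16. Epcam was -0.015 without 3 arrays and Herpud1 -0.065 against 153 alone. The GAPDH difference was -0.016 without 3 arrays and ranged from -0.053 to 0.334 without 1 rat (actin -0.0091 to 0.370). The causes were not tested beyond the smaller numbers of arrays or genes that some settings leave. Over single genes, 2445 of 2681 values kept direction and side, 101 gained and 128 lost a call, and 7 changed sign. Of 1148 list medians 1126 moved by less than 1 SD of the list's mean level between rats of the same dose. That SD is not one of the median itself. The cholesterol synthesis median counted as unmoved although it went from 0.21 to -0.08 without 3 arrays. Genes near background understate differences.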

Other observations

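Genes of the circadian clock, which oscillate over the day, held differences between the classes in both directions, none of them called. Of 18 measured members 0 were called, 6 were higher and 3 lower at an unadjusted p under 0.05, and the median was 0.13. Over all genes 3.5% were higher and 4.43% lower at that p. Dbp, an output factor of the clock, was 8.33, 9.39 and 7.26 at 76.5, 9.98, 10.05 and 8.42 at 153, 10.20, 9.98 and 10.39 at 305.5 and 10.08, 10.57 and 9.87 at 611 mg/kg (1.28 ± 0.34, adjusted p = 0.223). Bmal1, a core activator, was 7.65, 7.24 and 8.03 (76.5 mg/kg) and 6.91, 6.69 and 7.82 (153 mg/kg), then 7.04, 6.50 and 6.59 (305.5 mg/kg) and 6.69, 5.61 and 6.62 (611 mg/kg; -0.88 ± 0.23, adjusted p = 0.215). In both genes the 76.5 mg/kg rats and 153 mg/kg rat 3 stood nearest to vehicle (5.72 to 6.29 and 8.36 to 8.71). The hour of tissue collection per rat was not used here. The part of clock phase in the class differences of other genes, and in the slope on dose, was not tested.

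Genes of lipid use and of transport gave single large differences without calls. Of 29 PPARA targets, which serve fatty acid use, 2 were higher and 7 lower at an unadjusted p under 0.05 (median -0.07). The shares over all genes were 3.5% and 4.43%. Plin2, which coats lipid droplets, was 12.31 to 12.89 and 11.64 to 12.45 (-0.56 ± 0.12, adjusted p = 0.109), and Angptl4, an inhibitor of lipoprotein lipase, 10.33 to 11.26 and 8.88 to 10.76 (-0.78 ± 0.22, adjusted p = 0.265). Igfbp1, an insulin-repressed IGF-binding protein, was 11.89 to 12.59 and 10.45 to 12.59 (-1.24 ± 0.31, adjusted p = 0.186), where 611 mg/kg rat 3 stood beside the highest lower-dose rat. The taurine transporter gene Slc6a6 was 9.71, 8.08 and 8.29 (76.5 mg/kg) and 8.19, 7.82 and 8.80 (153 mg/kg), then 7.33, 8.0 and 7.71 (305.5 mg/kg) and 7.13, 6.95 and 7.29 (611 mg/kg; -1.08 ± 0.25, adjusted p = 0.146). All higher-dose rats but 305.5 mg/kg rat 2 lay beneath every lower-dose rat, and vehicle was 10.02 to 10.55. The paired sterol exporter genes Abcg5 and Abcg8 differed by -0.63 and -0.78 (adjusted p = 0.370 and 0.305).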
